A study of Homo sapiens with 2 samples.

Results

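The genes described here encode the constitutive 26S proteasome, and were taken by symbol from a fixed list of 33 genes, all of which were among the 19362 genes of the deposited table. They comprise 7 alpha ring and 7 beta ring subunits of the 20S core, 6 ATPases and 12 non-ATPases of the 19S cap, and the core assembly factor POMP. The RNA came from FTC-133, an established line of human follicular thyroid carcinoma cells. One group was transfected with a control siRNA (the control library) and the other with an siRNA against CHI3L1, which encodes a secreted chitinase-like glycoprotein (the knockdown library). Each group is 1 library of total RNA made with a TruSeq RNA kit, and the sources used here do not state the number of cultures behind a library, the siRNA sequences or the time of harvest.

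The proteasome degrades proteins that carry ubiquitin chains. Its core is a barrel in which 2 inner rings of beta subunits hold the proteolytic sites and 2 outer rings of alpha subunits form the gate and the docking surface for the cap. The cap has a base, where a ring of ATPases unfolds the substrate and threads it into the core, and a lid, which removes the ubiquitin. POMP escorts the assembly of the beta ring on a finished alpha ring and is degraded by the new particle. When proteasome capacity is short in mammalian cells, the transcription factor NFE2L1 is known to raise the subunit genes together.

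The control library held 15837449 reads in the table and the knockdown library 19467345. Levels are in CPM, that is read counts scaled to a common library size. Log2 folds are of the knockdown library over the control library after 1 CPM was added to both, which understates the differences of low genes. With 1 library per group there is no replicate check and no p-value, and each comparison is between these 2 libraries. A gene is called lower or higher at 1.5-fold. Ranges in parentheses after a ratio are 95% exact (Clopper-Pearson) intervals that cover counting error only, and reads without molecular identifiers are not independent molecules. In bulk RNA, fewer cells of a type and less RNA per cell cannot be told apart. CHI3L1 stood at 140 CPM in the control library and 48.6 CPM in the knockdown library. The thyroid transcription factors PAX8 (82.8 and 71.2 CPM) and NKX2-1 (88.6 and 112 CPM) were present in both libraries, TG had a level of 0.632 and 0.718 CPM, and 0 of 5 immune markers reached a mean of 1 CPM. Fibroblast markers summed to 60.7 and 49.7 CPM, most of it LUM (51.8 and 40.2 CPM), and endothelial markers to 8.79 and 5.69 CPM. Their part in the results was not tested.

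Most outer core subunits were lower after CHI3L1 silencing, and the non-ATPase cap subunits all stayed within 1.5-fold. Among these 12 cap genes the 95% interval of the ratio lay below 1 for 7 and above 1 for 3. Of the 33 genes, 13 were at least 1.5-fold lower in the knockdown library and 0 were higher, whereas 13.4% of all 14815 tested genes (mean of at least 1 CPM) were lower and 7.73% higher. The 13 genes were 6 of 7 alpha ring subunits, 3 of 7 beta ring subunits, 3 of 6 ATPases, 0 of 12 non-ATPases and POMP. The median log2 fold was −1.19 for the alpha ring, −0.54 for the beta ring, −0.41 for the ATPases and −0.24 for the non-ATPases, against 0.01 over all tested genes. All 33 genes passed the filter on the mean. Of these 33, 26 had a log2 fold below 0. At 2-fold, 7 members were lower (PSMA2, PSMA3, PSMA4, PSMA5, PSMA6, PSMC6 and POMP) and 0 higher, against 4.41% and 1.03% of all tested genes. The counting interval lay wholly beyond 1.5-fold in the lower direction for 10 members and in the higher direction for 0, against 8.4% and 3.58%. The differences between classes were not tested, since genes of one class are not replicates.

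**Figure D1:**
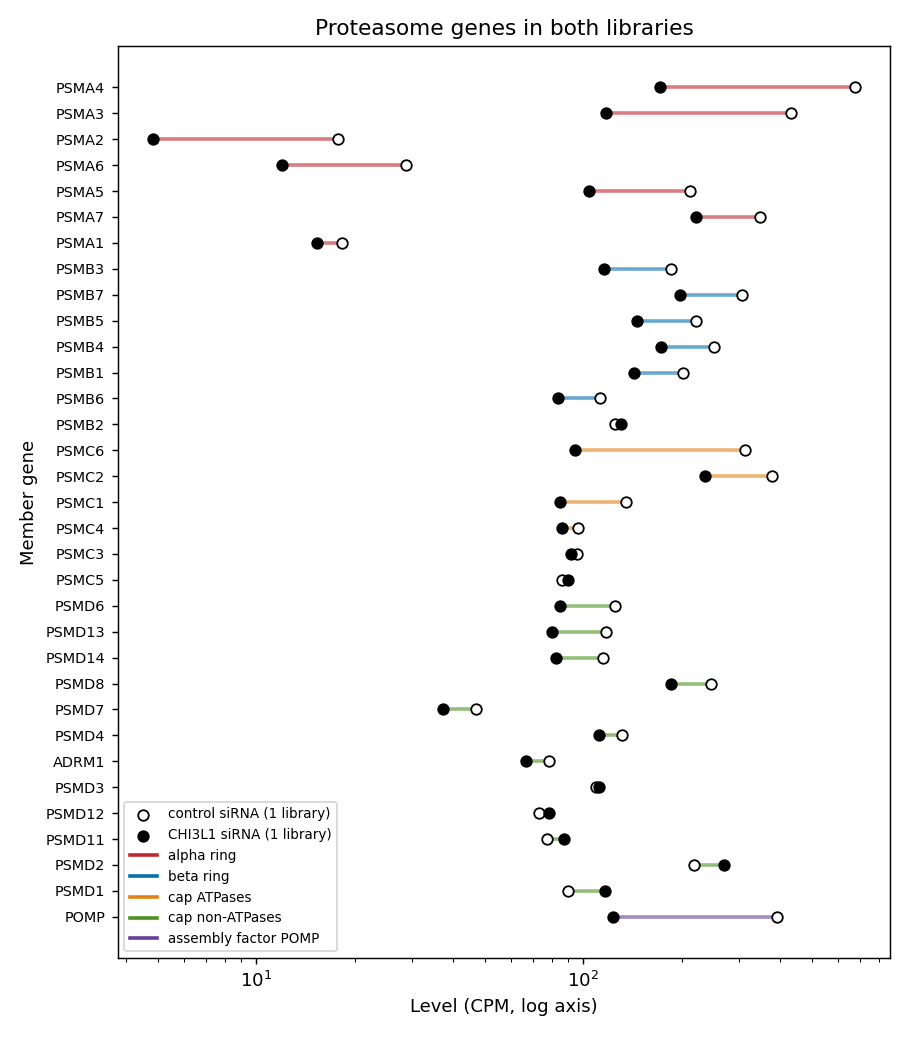
Level of each of the 33 genes in CPM (log axis) in the control library (open circles) and the knockdown library (filled circles), with lines coloured by class. PSMA4 moved from 679 to 172 CPM, while the levels of PSMD3 were 109 and 112 CPM.

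Summed over its members, the alpha ring stood at 1733 CPM in the control library and 647 CPM in the knockdown library, a ratio of 0.373 (0.365 to 0.381). The beta ring sum was 1401 and 988 CPM, a ratio of 0.705 (0.692 to 0.719). The ATPase sum was 1103 and 682 CPM, a ratio of 0.618 (0.604 to 0.632). For the non-ATPases the sums were 1426 and 1310 CPM, a ratio of 0.919 (0.902 to 0.935). All 33 genes together took 0.604% of reads in the control library and 0.376% in the knockdown library.

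Among the alpha ring genes, whose products form the outer rings of the core, PSMA4 (ENSG00000041357, plus strand of chromosome 15, 78540405 to 78552419 in GRCh38) had the lowest fold of all 33. It stood at 679 CPM in the control library and 172 CPM in the knockdown library, a ratio of 0.253 (0.243 to 0.263). PSMA3 (ENSG00000100567, plus strand of chromosome 14, 58244831 to 58272012) stood at 430 and 117 CPM, for a ratio of 0.273 (0.260 to 0.286). They had the 2 highest levels of the 33 genes in the control library, whereas PSMD2 had the highest in the knockdown library. PSMA5 stood at 212 and 104 CPM, a log2 fold of −1.02. PSMA7, which was the third most abundant alpha gene in the control library, stood at 348 and 221 CPM, a log2 fold of −0.65. It was the alpha gene with the highest level in the knockdown library.

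The remaining alpha genes, PSMA1, PSMA2 and PSMA6, stood apart in level. PSMA1 stood at 18.3 and 15.3 CPM, PSMA2 at 17.7 and 4.82 CPM and PSMA6 at 28.6 and 12.0 CPM, whereas the other 30 members all had at least 47.0 CPM in the control library. In GENCODE release 29 these 3 genes, and no other members, share exons with a second coding gene on the same strand (AC018523.2, AC010132.3 and AL121594.1), and none of those partners is among the genes of the table. The partners leave 46.8% of the annotated PSMA1 transcript, 47.5% of PSMA2 and 19% of PSMA6 to the member alone. The sources used here do not state how reads over shared exons were counted, so the levels of these 3 genes are uncertain and the part of the overlap in them was not tested. PSMA2 also overlaps MRPL32 on the opposite strand, which had more reads than PSMA2 in both libraries (161 and 57.7 CPM). The ratio was 0.272 (0.213 to 0.345) for PSMA2, 0.419 (0.356 to 0.492) for PSMA6 and 0.836 (0.709 to 0.987) for PSMA1. Without these 3 genes, 4 of 4 alpha genes were lower, with a median log2 fold of −1.44.

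The beta ring genes lay closer together. The subunits with proteolytic activity are PSMB6 (caspase-like), PSMB7 (trypsin-like) and PSMB5 (chymotrypsin-like, the main target of bortezomib). PSMB5 stood at 220 and 145 CPM, for a ratio of 0.660 (0.628 to 0.694). PSMB7 stood at 305 and 198 CPM, for a ratio of 0.647 (0.620 to 0.675). PSMB6 stood at 113 and 83.8 CPM, for a ratio of 0.743 (0.695 to 0.795), and did not pass 1.5-fold. Of the structural beta genes, PSMB3 was lower (186 and 115 CPM, log2 fold −0.68), and PSMB4 (−0.54) and PSMB1 (−0.49) fell short of the threshold. PSMB2 was the only beta gene above 0, at 125 and 131 CPM, with a ratio of 1.05 whose interval held 1 (0.988 to 1.11). By counting interval, 1 beta gene (PSMB3) and 6 alpha genes lay wholly beyond 1.5-fold.

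POMP (ENSG00000132963, plus strand of chromosome 13, 28659104 to 28678925) stood at 391 and 123 CPM, for a ratio of 0.315 (0.30 to 0.33). Its level was the third highest of the 33 genes in the control library.

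**Figure D2:**
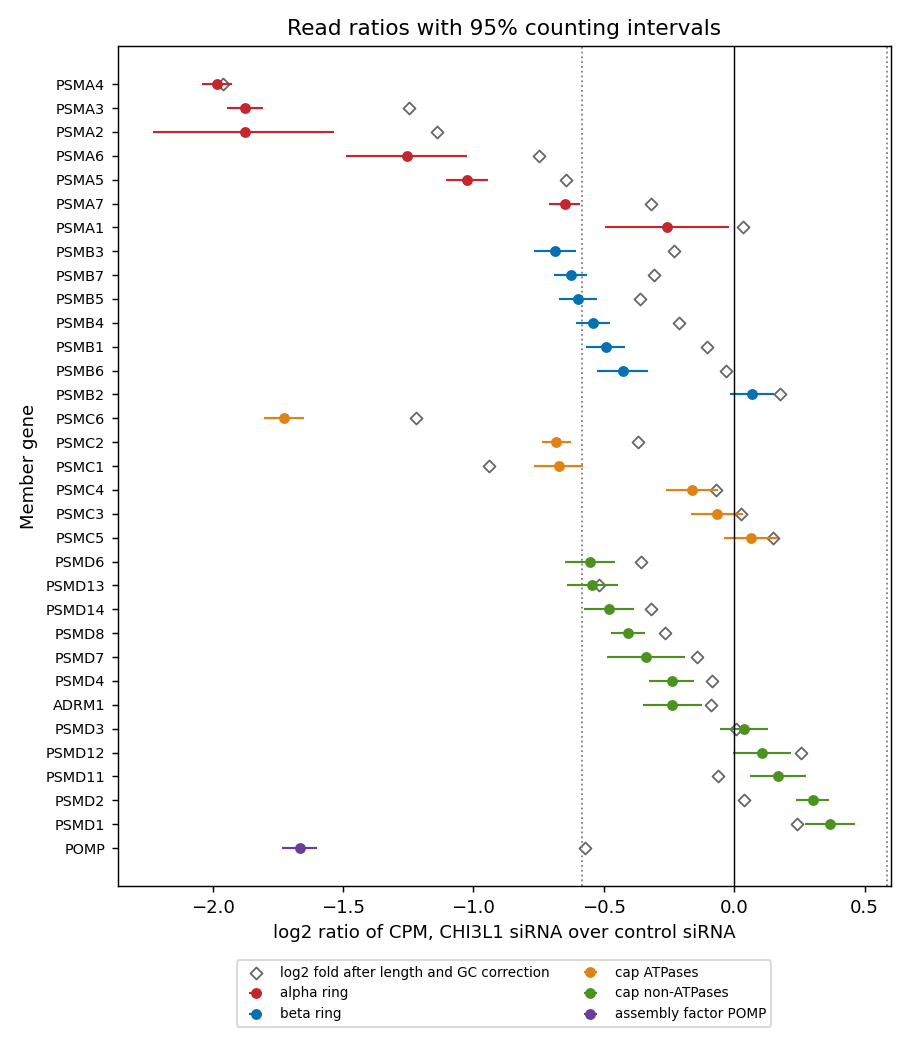
Log2 ratio of CPM (CHI3L1 siRNA over control siRNA) for each of the 33 genes with its 95% counting interval, coloured by class, and log2 fold after the length and GC correction (open diamonds). Dotted lines mark 1.5-fold. The alpha genes reach the lowest ratios, and the 12 non-ATPases all lie inside the dotted lines.

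The 6 ATPase genes split. PSMC6 (ENSG00000100519, plus strand of chromosome 14, 52707172 to 52728587) stood at 312 CPM in the control library and 94.3 CPM in the knockdown library, a ratio of 0.302 (0.286 to 0.319). PSMC2 stood at 377 and 235 CPM and PSMC1 at 135 and 84.7 CPM, with log2 folds of −0.68 and −0.67. PSMC3, PSMC4 and PSMC5 lay between 86.1 and 96.4 CPM in both libraries, with log2 folds of −0.06, −0.16 and 0.06. The products of all 6 form a single ring, so the genes of 1 ring fell on both sides of the threshold. Among members whose transcript is at least 2000 nt long, 5 of 11 were lower, including PSMC6, PSMC2 and PSMC1, and 0 higher, against 7.15% and 10.3% of such coding genes. Their median log2 fold was 0.039, against 0.14 for such coding genes. The lower genes PSMA4, PSMA5 and PSMC1 enter this subset through annotated transcripts (4411, 3729 and 4448 nt) that are long for their coding sequences. PSMC1 has 13 annotated pseudogenes named after it, of which 1 is in the table (PSMC1P1, 1.77 and 0.975 CPM), so its reads are uncertain. In all, 8 members have named pseudogenes and 9 overlap exons of another gene of the table on the opposite strand. Another 18 members had no such pseudogene, no such opposite-strand overlap and no second coding gene over their exons on the same strand. Of these 18, 8 were lower, with a median log2 fold of −0.51, against 13.4% of all tested genes. Overlaps with non-coding genes on the same strand, or with opposite-strand genes outside the table, were not screened.

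Of the non-ATPase genes, 4 belong to the base. PSMD1 and PSMD2 encode the large scaffold subunits and had the 2 highest folds of the 33 genes. PSMD1 stood at 89.9 and 116 CPM, for a ratio of 1.29 (1.21 to 1.38). PSMD2 stood at 218 and 269 CPM, for a ratio of 1.23 (1.18 to 1.29). Their intervals excluded 1 while both stayed under 1.5-fold. The ubiquitin receptors PSMD4 and ADRM1 had log2 folds of −0.24 and −0.23. ADRM1 overlaps LAMA5 on the opposite strand, which had more reads (294 and 287 CPM against 78.7 and 66.7 CPM).

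The 8 lid genes had a median log2 fold of −0.37 and ranged from −0.55 to 0.17. PSMD6 (125 and 84.9 CPM, log2 fold −0.55) and PSMD13 (−0.54) were the lowest. PSMD14, the deubiquitinase of the lid, stood at 115 and 82.4 CPM, for a ratio of 0.717 (0.670 to 0.767), and its partner PSMD7 at 47.0 and 37.2 CPM. PSMD8 had a log2 fold of −0.40. PSMD3, PSMD11 and PSMD12 had log2 folds of 0.04, 0.17 and 0.10, and the interval held 1 for PSMD3 and PSMD12.

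Levels were compared between genes per kb of coding sequence, since some annotated transcripts carry long untranslated ends. In the control library the 4 alpha genes without a same-strand partner lay between 293 and 867 CPM per kb, the beta genes between 157 and 367, the ATPases between 70.7 and 291 and the non-ATPases between 31.5 and 233. In the knockdown library the same alpha genes lay between 144 and 298 CPM per kb and the beta genes between 117 and 238. The highest of these 4 alpha genes was 2.96 times the lowest in the control library and 2.06 times in the knockdown library. These 4 were set apart after the values were seen, and over all 7 alpha genes the spread went the other way, from 37.4 times to 43.3 times. Among ATPases this spread was 4.11 times and then 2.82 times, with PSMC6 moving from 258 to 78.0 CPM per kb, close to PSMC5 (70.7 and 73.9). Among non-ATPases it was 7.42 times and 4.61 times. Per kb of transcript the 4 alpha genes ran from 56.9 (PSMA5) to 443 CPM (PSMA3) in the control library. In the knockdown library they ran from 28.0 (PSMA5) to 222 CPM (PSMA7), so their spread did not narrow. By that measure PSMC2 was the highest and PSMC1 the lowest ATPase in both libraries. Their ratios were 0.623 and 0.627, so the ATPase spread barely changed. PSMD8 (ratio 0.755) was the highest non-ATPase and PSMD12 (1.08) the lowest, and that spread still narrowed.

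**Figure D3:**
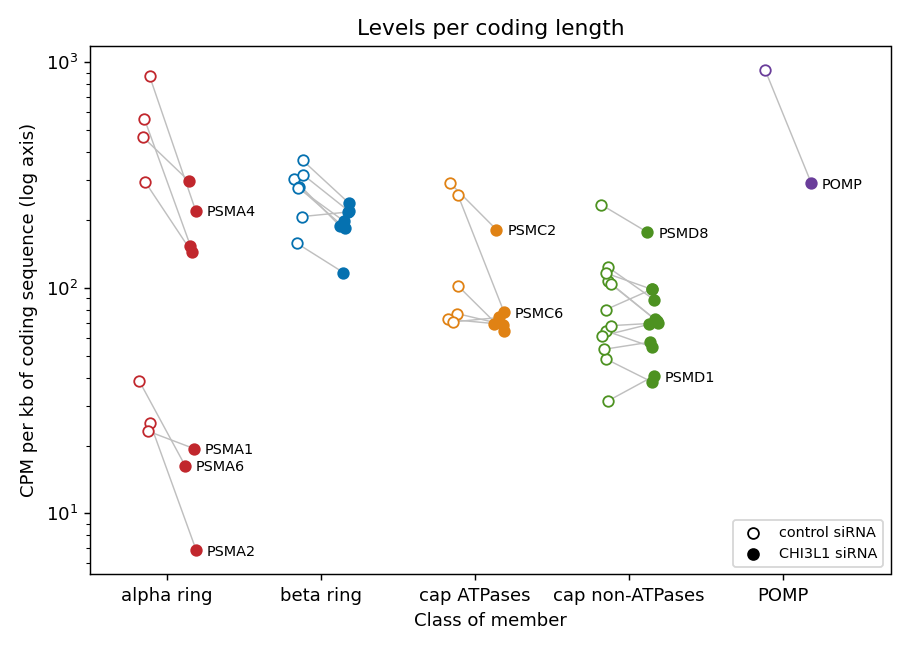
CPM per kb of coding sequence (log axis) by class, with the control library open, the knockdown library filled and lines joining the same gene. In the knockdown library PSMA3, PSMA4 and PSMA5 lie within the range of the beta genes and PSMA7 above it, and PSMC6 comes down to the level of the lower ATPases. Per kb of transcript (not shown), PSMA4 (38.9) and PSMA5 (28.0) lie below the lowest beta gene, PSMB2 (48.4), in that library.

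Folds rose with coding length over all coding genes as well as among the members, and over all coding genes only weakly with coding GC content. The 6 genes with the lowest folds (PSMA4, PSMA3, PSMC6, PSMA2, POMP and PSMA6) all had a coding GC content under 45%. So had 11 members in all, and the others (PSMA1, PSMD1, PSMD6, PSMD12 and PSMD14) were not called lower. PSMD1 had the highest fold of the 33. Across the 33 genes, Spearman's rho of log2 fold was 0.43 with coding GC content and 0.57 with coding length, and across 12660 tested coding genes it was 0.13 and 0.46. For coding sequences over 1000 nt the median fold was −0.17 at 36 to 40% GC, 0.25 at 48 to 52% and 0.12 at 64 to 68%. All 14 core genes and POMP have shorter coding sequences, and there the rise at low GC was steeper. For at most 1000 nt the median was −0.83 at 36 to 40% GC, −0.51 at 40 to 44%, −0.21 at 48 to 52%, −0.14 at 52 to 56% and −0.12 at 64 to 68%. These are descriptions across genes of the same 2 libraries. The alpha and beta genes have similar coding lengths (702 to 789 nt and 603 to 831 nt) and differ in composition, with a median coding GC content of 42.8% and 54.8%. Within the 14 core genes rho was 0.57 with coding GC content and −0.04 with coding length, and within the 18 cap genes it was 0.23 and 0.56.

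Stretches of 120 bases from the middle of the coding sequence are shown to make this difference visible, for a pair of core genes and a pair of ATPase genes of nearly equal coding length, PSMA4 and PSMC6 being low and PSMB5 and PSMC5 less so or not at all. They run 5′ to 3′, were read from GENCODE transcripts on GRCh38, and have G and C in capitals.
PSMA4: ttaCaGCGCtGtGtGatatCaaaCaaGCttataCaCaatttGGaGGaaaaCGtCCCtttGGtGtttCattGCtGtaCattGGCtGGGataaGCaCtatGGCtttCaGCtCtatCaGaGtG
PSMB5: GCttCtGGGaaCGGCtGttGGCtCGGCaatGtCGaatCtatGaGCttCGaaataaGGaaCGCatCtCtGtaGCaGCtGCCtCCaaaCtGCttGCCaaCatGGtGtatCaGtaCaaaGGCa
PSMC6: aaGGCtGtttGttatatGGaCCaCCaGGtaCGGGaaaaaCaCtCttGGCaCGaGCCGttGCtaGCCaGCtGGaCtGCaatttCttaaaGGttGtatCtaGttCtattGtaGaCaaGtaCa
PSMC5: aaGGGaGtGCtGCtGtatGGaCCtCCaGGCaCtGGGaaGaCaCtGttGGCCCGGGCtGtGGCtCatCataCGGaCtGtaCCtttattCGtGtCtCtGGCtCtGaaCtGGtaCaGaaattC
The stretch holds 42.5% G and C in PSMA4 (bases 332 to 451 of 783) and 50% in PSMB5 (335 to 454 of 789). It holds 44.2% in PSMC6 (545 to 664 of 1209) and 53.3% in PSMC5 (550 to 669 of 1218). Both ATPase stretches include the region of the nucleotide-binding loop that the family shares.

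The members were also set beside other genes of the same kind of coding sequence, a split chosen after the values were seen. Of the 7 members with a coding sequence of at most 1000 nt and under 45% GC, 5 were lower, with a median log2 fold of −1.66. Of the 790 other tested coding genes in that class, 47.2% were lower, with a median of −0.54. Of the 10 short members with at least 45% GC, 5 were lower, with a median of −0.57, against 21.9% and a median of −0.19 for 3121 other genes. Longer members with at least 45% GC had a median of −0.20 and 2 of 12 were lower, against 3.08% and a median of 0.20 for 6371 other genes. Of the 4 longer members with under 45% GC, 1 was lower (PSMC6), with a median of −0.22, against 13.3% and a median of 0.02 for 2345 others. In each of these 4 classes the members' median lay below that of the other genes.

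**Figure D4:**
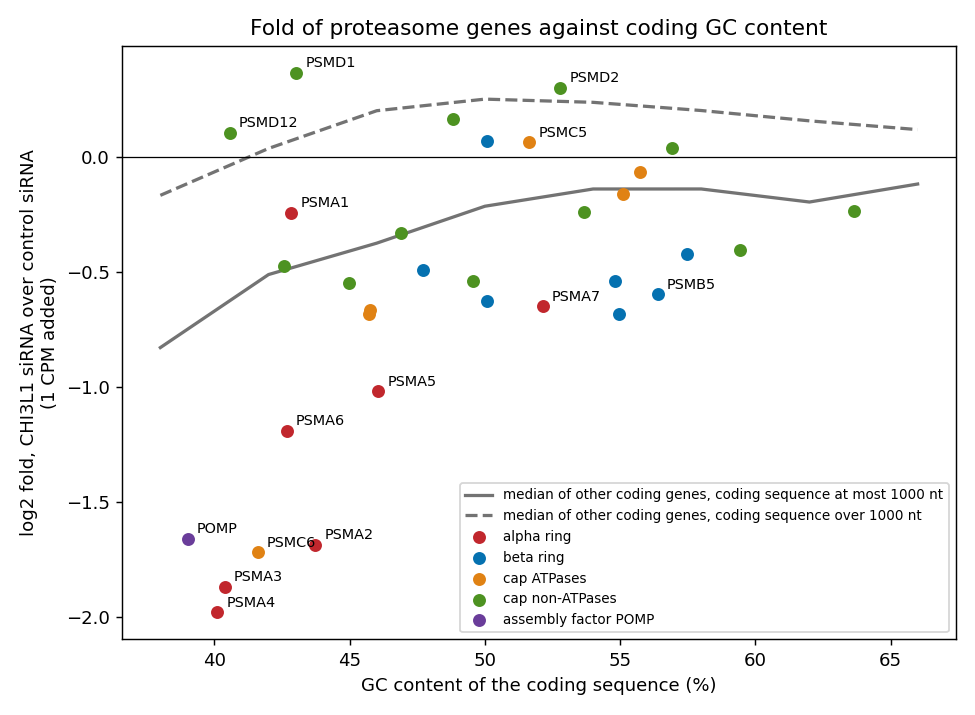
Log2 fold against GC content of the coding sequence (%) for the 33 genes, coloured by class, with the median of other tested coding genes in bins of GC content (solid line, coding sequence of at most 1000 nt; dashed line, longer). PSMA4, PSMA3, PSMA2, PSMC6 and POMP lie far below both lines, while PSMD1 and PSMD2 lie above them.

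A smooth trend in transcript length, coding length and whole-transcript GC content was fitted to 12627 tested coding genes other than the members. After its subtraction, 7 of the 33 genes were at least 1.5-fold lower and 0 higher, against 7.6% and 5.64% of tested coding genes. The 7 genes were PSMA2, PSMA3, PSMA4, PSMA5, PSMA6, PSMC1 and PSMC6, and all of them were also lower before the correction. The median corrected log2 fold was −0.75 for the alpha ring, −0.21 for the beta ring, −0.22 for the ATPases and −0.087 for the non-ATPases. Thus 5 of 7 alpha genes and 0 of 7 beta genes were past the threshold after the correction. Of the 5, PSMA2 and PSMA6 have the uncertain levels described above, and PSMA5 stood at −0.65, just past the threshold. Coding GC content was not a term of the trend. Spearman's rho of corrected log2 fold with coding GC content was 0.42 across the 33 genes and 0.56 within the 14 core genes. With coding length it was 0.39 across the 33 genes. Across the 12660 tested coding genes, rho of the corrected fold was 0.0018 with coding GC content and −0.0067 with coding length. PSMA4 barely moved (−1.98 before and −1.96 after), PSMA3 went from −1.87 to −1.25, PSMC6 from −1.72 to −1.22, and POMP from −1.66 to −0.57, just inside the threshold. PSMC1 moved the other way, from −0.67 to −0.94. The annotated transcripts of PSMA4 (4411 nt), PSMA5 (3729 nt) and PSMC1 (4448 nt) are long for their coding sequences. Which transcript forms these cells express was not tested.

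Genes that work with the proteasome were described from 10 lists (68 genes, 66 of them in the table). Of the remaining cap subunit and the assembly chaperones, 5 of 9 were lower and 0 higher, against 13.4% and 7.73% of all tested genes. In lists of this size such shares amount to about 1 gene, and lists with 0 or 1 call are near the background. PSMG4 (77.2 and 32.6 CPM, log2 fold −1.22), a subunit of an alpha ring assembly chaperone, and SEM1 (490 and 221 CPM, −1.14), the smallest lid subunit, had the largest differences. SEM1 had a corrected log2 fold of 0.085, and 2 of 9 genes were lower after the correction, against 7.6% of tested coding genes. The other alpha ring chaperone genes PSMG1, PSMG2 and PSMG3 had log2 folds of −0.70, −0.72 and −0.94. The base chaperones PSMD5, PSMD9, PSMD10 and PAAF1 lay between −0.17 and 0.25.

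Of the immunoproteasome genes, which replace the catalytic beta subunits under interferon, PSMB9 (72.3 and 44.3 CPM) and PSMB8 (110 and 69.9 CPM) were lower, with log2 folds of −0.70 and −0.65, and PSMB10 had −0.29. After the correction 0 of 3 passed. Of the activators and the inhibitor, PSME2, a subunit of the PA28 activator, was lower (292 and 132 CPM, log2 fold −1.14, corrected −0.89), while its partner PSME1 had −0.36. PSMA8 and PSMB11, subunits of testis and thymus, were not analysed here.

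Genes that control subunit transcription or deliver substrates had few calls. NFE2L1 stood at 285 and 478 CPM, for a ratio of 1.68 (1.62 to 1.74), and DDI2, the protease that activates its product, at 32.7 and 48.3 CPM, a ratio of 1.48 (1.33 to 1.65). Their corrected log2 folds were 0.38 and 0.28, both under the threshold. Of the 7 genes of that list 1 was higher and 0 lower, and after the correction 0 passed in either direction. Among genes for substrate delivery, 1 of 8 was higher (UBQLN2, 27.3 and 45.2 CPM) and 0 lower, near the 7.73% and 13.4% of all tested genes, and UBQLN2 was under the threshold after the correction (0.52). UFD1 had a log2 fold of −0.55. Of the particle-bound factors, 1 of 6 was higher (ECPAS, 88.2 and 139 CPM) and 0 lower, and TXNL1 had a log2 fold of −0.39. ECPAS was also under the threshold after the correction, at 0.28. Of the ubiquitin genes and their activating enzymes, 1 of 6 was lower, the ubiquitin and ribosomal protein fusion RPS27A (1190 and 454 CPM, log2 fold −1.39), and UBA6 had 0.53.

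The COP9 signalosome and eIF3 are complexes built on the same plan as the lid. In the signalosome 3 of 9 genes were lower and 0 higher, against 13.4% and 7.73% of all tested genes, with the largest differences for COPS4 (149 and 47.6 CPM, log2 fold −1.62) and COPS5 (171 and 69.3 CPM, −1.29), its deubiquitinase-like subunit and the relative of PSMD14. The third was COPS2 (−1.26). COPS2, COPS4 and COPS5 were also lower after the correction, against 7.6% of tested coding genes (corrected −0.95 for COPS2 and −1.33 for COPS4). In eIF3, 3 of 13 genes were lower and 2 higher, with EIF3E (1230 and 350 CPM, −1.81) and EIF3I (269 and 172 CPM, −0.65) having the largest differences. After the correction only EIF3E was lower (−1.30) and 0 of 13 were higher, and EIF3I stood at −0.49.

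**Figure D5:**
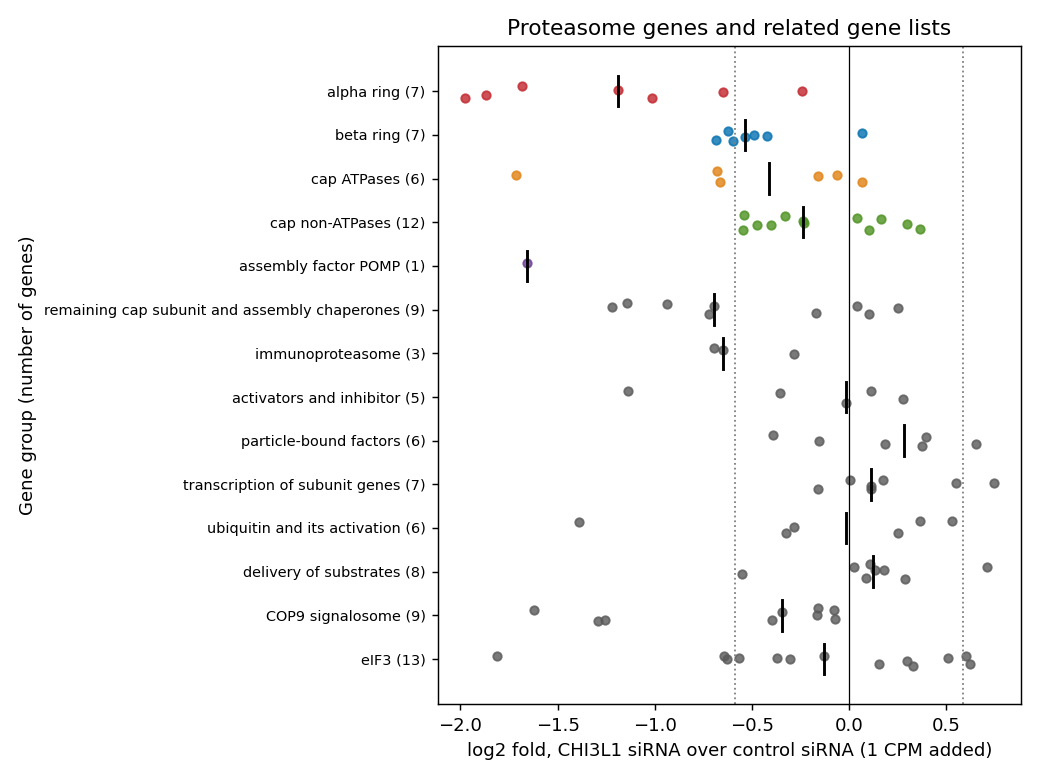
Log2 fold of each gene (points, spread vertically at random) for the 5 classes of members in colour and the related lists in grey, with black bars at the medians and dotted lines at 1.5-fold. The alpha ring has the lowest median of the 4 subunit classes, at −1.19, and single genes of eIF3 and the signalosome lie as low as the alpha genes.

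Promoters were matched in RefSeq (GRCh38.p14) for 28 of the 33 genes, and the 250 bases before the start were searched on both strands, each motif on its own, so that matches to different motifs may overlap. The sequence TGACNNNGC, the core of the antioxidant-type element that NFE2L1 dimers can bind, was found in 4 of 28 members (14.3%), against 11% of 27305 promoters. This background, used for each motif, took 1 promoter per symbol and was not limited to tested or coding genes. Whether the members differ from other tested genes in motifs was not examined. Of the 4, PSMB3 was lower and PSMD3, PSMD12 and ADRM1 were not. CCAAT was found in 14 of 28 (50%, against 33%), CCGGAAG, an ETS-type sequence, in 7 (25%, against 8.82%), GGGCGG in 19 (67.9%, against 42.3%) and the palindrome bound by nuclear respiratory factor in 0 (against 1.13%). Motifs were present in both called and uncalled members: CCAAT was in 6 of 11 lower genes and 8 of 17 others, and CCGGAAG in 3 of 11 and 4 of 17. The upstream sequences of PSMB3 and PSMD3 are shown as members that share the first motif (capitals) and differ in fold (−0.68 and 0.04). A match says only that the letters are present.
PSMB3 (chr17:38752491-38752740, plus strand): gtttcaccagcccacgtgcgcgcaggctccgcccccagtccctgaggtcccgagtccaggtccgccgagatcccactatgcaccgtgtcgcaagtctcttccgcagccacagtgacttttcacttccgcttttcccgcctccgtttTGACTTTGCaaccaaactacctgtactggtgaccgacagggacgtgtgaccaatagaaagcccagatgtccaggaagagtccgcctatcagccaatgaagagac
PSMD3 (chr17:39980557-39980806, plus strand): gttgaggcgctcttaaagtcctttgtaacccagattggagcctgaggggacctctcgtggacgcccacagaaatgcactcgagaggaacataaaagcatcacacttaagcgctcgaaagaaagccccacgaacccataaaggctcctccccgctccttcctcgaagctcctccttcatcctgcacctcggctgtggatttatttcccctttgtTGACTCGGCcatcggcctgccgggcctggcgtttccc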

How the data were processed

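Values were deposited as CPM for 19362 Ensembl genes in 2 columns matched by title to the control siRNA and CHI3L1 siRNA samples. Tools named in the submitters' processing notes are featureCounts, HISAT2, Trimmomatic, FastQC and MultiQC, with the GRCh38 build and no versions. The sources used here state neither the normalisation tool nor the strand setting. Each deposited CPM value was a whole number of reads plus 0.001, times 1 step per library (0.0632 and 0.0513 CPM, 100% of values within 0.01 read), and reads were recovered from this. A count of 0 allows up to 3 reads (0.190 and 0.154 CPM), and every gene had at least 6 reads in 1 of the libraries.

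The 33 members and the lists were chosen with earlier results of these data known. All members are named, with, of each related list, the 2 genes with the largest absolute fold, and any other gene of those lists where a sentence counts them. Symbols, coordinates, overlaps and transcript features came from GENCODE release 29 (GRCh38) and an Ensembl symbol table, with 1 principal transcript per gene. Between equally ranked transcripts the longest was taken. The correction used splines (5 degrees of freedom per term) fitted to 12627 tested coding genes that are no members and applied to 12660 (85.5% of tested genes) and took up 35.9% of the variance of folds. Python 3.11.15, pandas 2.3.3, scipy 1.17.1 and patsy 1.0.2 were used. The steps were tested on simulated data. No count model was run, since 1 library per group allows none. Alternatives were other pseudocounts, scalings, thresholds, filters and subsets of members.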

Additional observations from a re-analysis of the deposited data

How the results depend on the processing

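No paired analysis was possible because each group is 1 library. The results rest on 2 libraries, and among the members counting error was widest for PSMA1, PSMA2 and PSMA6, with at most 453 reads in either library. Dropping these 3 genes was an alternative chosen after seeing the data. A pseudocount of 0.5 CPM and the trimmed mean of log ratios moved no class count or median beyond counting error. At a pseudocount of 10 CPM the alpha ring median was −0.90 and CHI3L1 stood at −1.36. Centring folds on the median of genes from 50 CPM upward moved every fold by −0.10: medians were −0.59 (all 33), −1.29 (alpha), −0.64 (beta), −0.51 (ATPases) and −0.34 (non-ATPases), and 5 beta and 2 non-ATPase genes were lower. At 2-fold, 7 members were lower, with 0 beta genes and 1 ATPase. Intervals wholly beyond 1.5-fold left 1 beta gene. After the length and GC correction 7 members and 0 beta genes were lower, with medians of −0.23 (all), −0.75 (alpha), −0.21 (beta), −0.22 (ATPases) and −0.087 (non-ATPases), and SEM1 reversed to 0.085. Among members with transcripts of at least 2000 nt, 5 of 11 were lower with a median of 0.039; 2 of 2 alpha genes (median −1.50), 0 of 1 beta gene (0.067), ATPases with a median of −0.68 and non-ATPases with 0.17. Without members that have a named pseudogene, 8 of 25 were lower and 1 beta gene, with medians of −1.02 (alpha), −0.16 (ATPases) and 0.039 (non-ATPases). Without PSMA1, PSMA2 and PSMA6 the alpha median was −1.44. The last 3 settings test fewer members by construction. For the other changes the cause was not tested.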
